A study of Mus musculus with 8 samples.

Results

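The CpGs described here lie in the gene-poor part of the mouse genome, more than 50 kb from any protein-coding or long non-coding RNA (lncRNA) gene in RefSeq. Members were cytosines on chromosomes 1 to 19 that were covered by at least 10 reads in all 8 mice and lay beyond that distance on mm10, and the rule used position and coverage, not methylation. It kept 80381 cytosines, 5.43% of the 1480441 autosomal cytosines covered in all mice, and 1510385 cytosines were so covered when X and Y were counted. Of these gene-distant cytosines, 58474 (72.7%) fell into 9452 runs with at least 3 CpGs and gaps of at most 100 bp, out of 125877 runs in the genome. The study compared 4 male C57 BL/6 mice after cocaine self-administration with 4 male C57 BL/6 mice after saline self-administration, using DNA of brain tissue labelled dDG DGC layer. Doses, session times and ages are not given in the labels used here. The values come from reduced representation bisulfite sequencing (RRBS), which sequences CpG-rich restriction fragments after bisulfite has converted unmethylated cytosines. A methylation level is the percent of reads at a cytosine that stayed unconverted. Nothing in the labels says whether each library came from 1 mouse or a pool beyond the design text's 4 mice per group.

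Gene deserts are long stretches of mammalian genome without annotated genes. Most CpGs in them are methylated by the DNA methyltransferases and kept so through cell division, while CpG islands, short CpG-rich elements that often coincide with promoters, are usually free of methylation. Gene deserts can also hold distal enhancers, microRNA genes and processed pseudogenes, which are inactive copies of genes. An annotated gene was protein-coding or lncRNA only, so a microRNA, a pseudogene or an antigen receptor locus could lie among these CpGs.

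Mir137 is shown because its hairpin was the 1 gene-distant microRNA hairpin that held covered CpGs. It encodes miR-137, a brain-enriched microRNA known to regulate neuronal maturation. Mir5099 is shown for contrast, since the cytosines next to it were methylated. RefSeq (GRCm38.p6) gives these sequences. Capitals in the 2 hairpins mark CpG dinucleotides, and capitals in the 2 mature sequences mark the seed, bases 2 to 8.
Mir137 hairpin: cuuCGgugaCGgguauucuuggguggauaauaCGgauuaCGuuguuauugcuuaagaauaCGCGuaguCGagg
mmu-miR-137-5p: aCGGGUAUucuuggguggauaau
mmu-miR-137-3p: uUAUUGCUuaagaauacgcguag
Mir5099 hairpin: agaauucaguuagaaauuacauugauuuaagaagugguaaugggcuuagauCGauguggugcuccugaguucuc
The Mir137 hairpin holds 7 CpGs and the Mir5099 hairpin holds 1. The seeds of the 2 arms of miR-137 differ, so the arms do not form a seed family.

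The gene-distant cytosines were highly methylated in every mouse. Their mean level per mouse was 80.05%, 80.2%, 78.9% and 80.8% in cocaine mice, against 80.6%, 80.7%, 80.9% and 81.0% in saline mice. Cocaine 3 was the lowest mouse, and the groups overlapped through cocaine 4. In the same libraries cytosines between genes but over 1 kb and up to 50 kb from one (228802 cytosines) averaged 63.6% ± 0.894 in cocaine mice and 64.6% ± 0.361 in saline mice (SD, n = 4 each). Cytosines inside genes (1057422) averaged 31.0% ± 0.691 in cocaine mice and 31.7% ± 0.145 in saline mice. Within mouse, the gene-distant level was higher than the level nearer genes by 16.3 points, ranging from 16.01 to 16.7, and this held in 8 of 8 mice (exact sign-flip permutation test, two-sided, p = 0.0078125, the smallest p it can give). It was higher than the level inside genes by 49.1 points, also in 8 of 8 mice (same exact permutation test, p = 0.0078125).

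**Figure D1:**
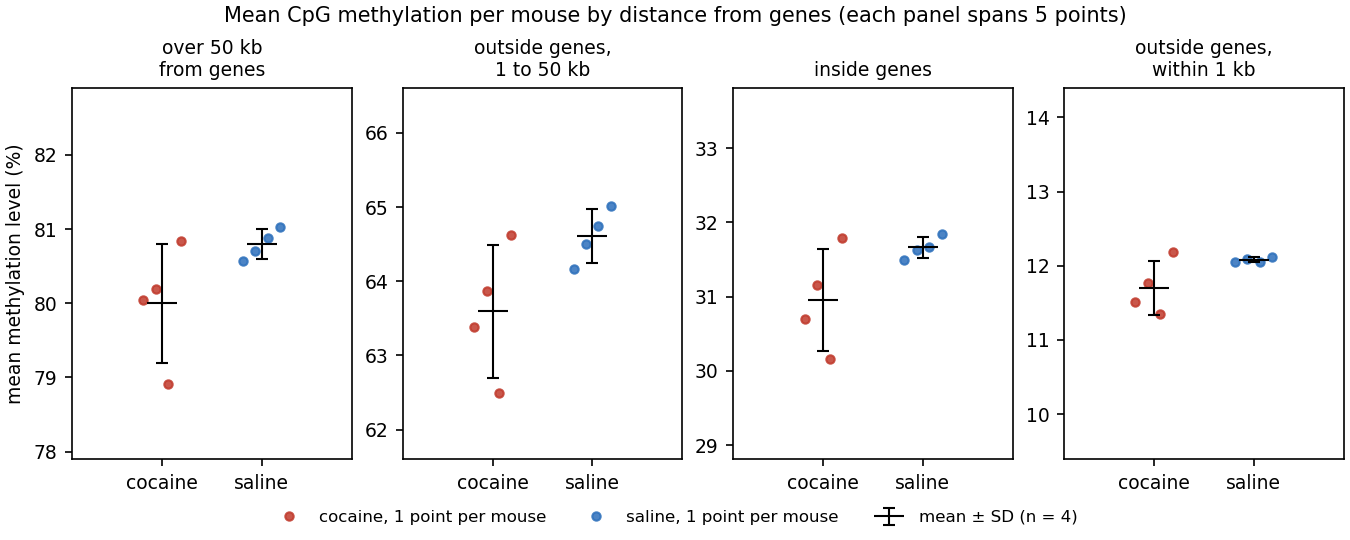
Mean methylation level (%) of each mouse by position of the cytosine, with cocaine mice left of saline mice. Points are mice, bars are mean ± SD (n = 4), and each panel spans 5 points on its own axis. Gene-distant cytosines read about 80% in both groups and those inside genes about 31%.

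Most of these cytosines were close to fully methylated and few were free of it. By the level pooled over all 8 mice, 59932 (74.6%) were over 80%, 15315 (19.1%) lay from 20% to 80%, and 5134 (6.39%) were under 20%. The share under 20% was lower at each greater distance. It was 9.80% at 50 to 100 kb, 5.66% at 100 to 200 kb, 2.43% at 200 to 500 kb and 1.52% beyond 500 kb. The mean level followed the same order in both groups. It was 74.7% in cocaine mice and 75.6% in saline mice at 50 to 100 kb, and 81.3% in cocaine mice and 82.0% in saline mice at 100 to 200 kb. It was 85.9% in cocaine mice and 86.6% in saline mice at 200 to 500 kb, and 87.8% in cocaine mice and 88.5% in saline mice beyond 500 kb. Each of the 8 mice showed this order.

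Gene-distant runs had the size of other intergenic runs. They had a median length of 100 bp and a median of 4 CpGs, against 4 CpGs and nearly the same length in runs up to 50 kb from genes and 128 bp and 5 CpGs inside genes, with a median coverage of 54.1 reads per cytosine. The median CpG density was 4.31 per 100 bp in gene-distant runs and 4.17 in runs up to 50 kb from genes. Their median pooled level was 89.5%, against 82.7% for runs up to 50 kb from genes and 60.9% for runs inside genes. A pooled level under 20% was found in 332 of them (3.51%), against 12.1% of the nearer runs and 34.4% of those inside genes. These comparisons of shares are descriptive, because runs of the same mice are not replicates.

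**Figure D2:**
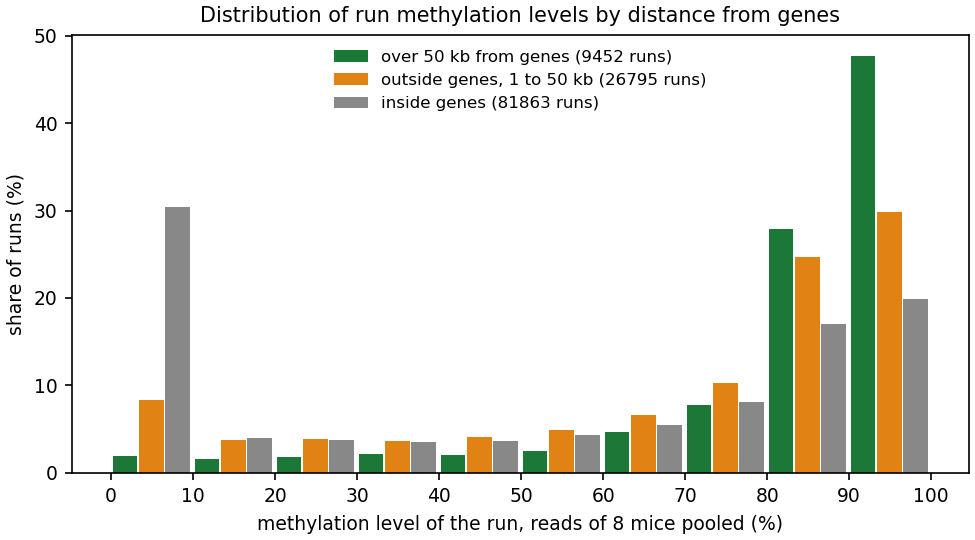
Share of runs (%) in each 10-point bin of methylation level (%), with the reads of all 8 mice pooled, for runs over 50 kb from genes, runs outside genes up to 50 kb away and runs inside genes. Of the gene-distant runs 75.6% lie over 80% and 3.51% under 20%, while 34.4% of runs inside genes lie under 20%.

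The share of unmethylated runs was higher in runs with more CpGs. A pooled level under 20% was found in 2.26% of gene-distant runs with 3 to 4 CpGs, 3.58% with 5 to 9, 7.85% with 10 to 19 and 56.0% with 20 or more. Most unmethylated runs still had few CpGs, since 87 of the 332 had 10 or more CpGs, and their median was 6 CpGs against 4 in the other gene-distant runs. The 28 unmethylated runs with 20 or more CpGs stood beside 18 that were over 80% methylated, out of 50 such runs. Among the runs up to 50 kb from genes, 79.6% of those with 20 or more CpGs were under 20%. The run with the most CpGs, 57, lay on chromosome 12 at 20920714 to 20921253, in the non-coding transcript 3110053B16Rik and 105 kb from the lncRNA 1700030C10Rik. It read 0.0713%, 0.313%, 0.425% and 0.306% in cocaine mice, against 0.0271%, 0.321%, 0.127% and 0.109% in saline mice. The groups overlapped, with every mouse under 1%.

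A similar unmethylated run with 54 CpGs lay on chromosome 15 at 68363083 to 68363467, 104 kb from Zfat, a zinc finger and AT-hook gene. It averaged 0.195% ± 0.205 in cocaine mice and 0.440% ± 0.460 in saline mice (SD, n = 4 each). A run with 52 CpGs on chromosome 12 at 20990269 to 20990854 lay in the annotated feature Gm30124. It was 121 kb from Asap2, which encodes an Arf GTPase-activating protein, and averaged 1.30% ± 0.193 in cocaine mice and 1.55% ± 0.121 in saline mice. A run with 39 CpGs on chromosome 8 at 92460506 to 92460870 was 99.1 kb from Irx5, an Iroquois homeobox gene. It averaged 2.88% ± 0.836 in cocaine mice and 2.32% ± 0.902 in saline mice. The run with 41 CpGs on chromosome 2 at 172728347 to 172728837, 59.9 kb from the lncRNA Gm36156, read 4.95% in saline 1 and from 0.217% to 1.18% in the other 7 mice. The run with 40 CpGs on chromosome 3 at 143100915 to 143101226, 60.2 kb from 4930519L02Rik, read 4.63% in saline 1 and from 0% to 1.01% in the others. CpG number alone did not fix the level, since a run with 48 CpGs on chromosome 1 at 34929781 to 34930639 was methylated. It lay in the pseudogene Gm19430, 50.2 kb from Plekhb2, and averaged 92.0% ± 2.00 in cocaine mice and 91.3% ± 0.904 in saline mice.

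Mir137 lay in such an unmethylated stretch. Its hairpin is at chr3:118433857-118433929 on the plus strand, 64.4 kb from the nearest gene, the lncRNA Gm26871. All 4 covered cytosines in the hairpin read 0% in all 8 mice, from 80 to 205 reads per mouse summed over the 4 cytosines. In the shallowest mouse each of the 4 had 20 reads, and 1 read can cover all 4, which lie on the minus strand. A count of 0 of 80 allows a level of up to 3.75% in that mouse only if the 80 are separate reads. The limit is higher where the same reads are counted at several cytosines, and reads of 1 fragment share their source. The 68 gene-distant cytosines within 2000 bp of the hairpin averaged 0.860%, 1.46%, 0.786% and 1.60% in cocaine mice, against 3.07%, 1.24%, 1.12% and 2.99% in saline mice. Saline 1 and saline 4 were the highest and the groups overlapped. The run over the hairpin, at 118433712 to 118434190 on chromosome 3, had 31 CpGs and averaged 0.0890% ± 0.144 in cocaine mice and 0.633% ± 0.492 in saline mice (SD, n = 4 each). Of the 4 runs around the gene, 1 passed the filter on level for the test. That run, at 118435257 to 118435397, averaged 4.60% ± 1.501 in cocaine mice and 7.80% ± 4.38 in saline mice (quasi-binomial test, adjusted p = 0.886).

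**Figure D3:**
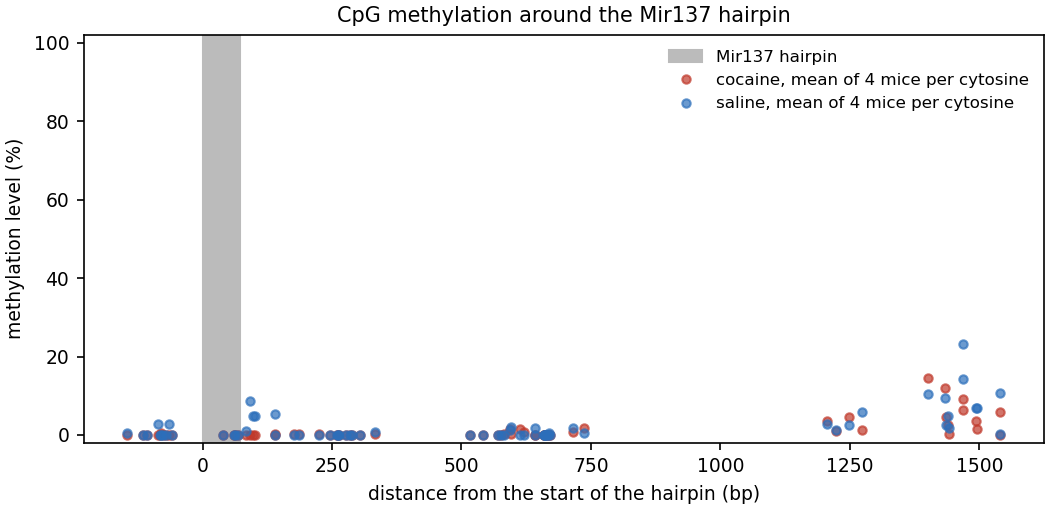
Methylation level (%) of gene-distant cytosines around the Mir137 hairpin by distance in bp from the hairpin's start, with cocaine and saline group means. The 4 cytosines inside the hairpin are at 0% in both groups.

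Other microRNA genes in the gene-distant genome did not share this state where they could be read. RefSeq places 27 of 919 autosomal hairpins over 50 kb from a gene, and 4 of them had gene-distant cytosines within 2000 bp. The run of 18 cytosines beside Mir5099, on chromosome 12 at 36816391 to 36816554, read 94.3%, 91.2%, 93.1% and 92.4% in cocaine mice, against 96.5%, 96.9%, 94.7% and 97.4% in saline mice. Every cocaine mouse was below every saline mouse, and the difference of -3.62 points did not pass (adjusted p = 0.876, quasi-binomial test over all runs). This run was picked after its values were seen. Near Mir6420, 3 cytosines averaged 42.7%, 58.3%, 61.0% and 54.4% in cocaine mice, against 78.7%, 63.0%, 65.3% and 76.1% in saline mice. These groups did not overlap either, and the window was not tested. Near Mir6401, 2 cytosines averaged 66.9% ± 8.38 in cocaine mice and 69.4% ± 12.1 in saline mice.

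Pseudogenes were the most frequent annotated feature at these CpGs. No annotated feature covered 94.99% of the gene-distant cytosines. Pseudogenes covered 2761 of them in 351 features, with a mean of 75.9% ± 0.918 in cocaine mice and 76.5% ± 0.0674 in saline mice (SD, n = 4 each). Of the 194 pseudogenes with at least 5 cytosines, 158 were over 80% methylated, 27 lay in between and 9 were under 20%. The 9 were Gm21321, 2610005L07Rik, Gm16505, Gm18763, Gm4425, Gm20472, Vmn2r-ps15, 4632415L05Rik and Gm2399. Gm21321, on chromosome 10, had 91 cytosines and read 0.615%, 1.499%, 0.577% and 0.868% in cocaine mice, against 0.882%, 0.925%, 0.651% and 0.558% in saline mice. Its groups overlapped. Reads from a pseudogene can align to a near-identical copy elsewhere, so which copy these levels describe is uncertain.

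The antigen receptor loci Igh, Igk, Igl, Tcra, Tcrb and Tcrg, whose segments are rearranged in lymphocytes, were methylated in this brain tissue. Their 984 gene-distant cytosines averaged 83.8% ± 0.564 in cocaine mice and 84.2% ± 0.198 in saline mice (SD, n = 4 each). Igk, with 520 cytosines, read 86.0%, 86.4%, 85.7% and 87.3% in cocaine mice, against 86.7%, 87.0%, 86.8% and 86.0% in saline mice. Igh, with 279, read 79.4%, 79.4%, 77.5% and 78.9% in cocaine mice, against 79.0%, 79.8%, 79.8% and 79.7% in saline mice. Tcrb had the lowest pooled level of the 6, 71.5% over 20 cytosines, and read 70.2%, 70.4%, 71.7% and 73.7% in cocaine mice, against 72.3%, 69.6%, 72.4% and 71.3% in saline mice.

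Cocaine and saline mice differed by under 1 point in the mean gene-distant level, and the difference did not pass an exact permutation test. The mean was 79.998% ± 0.802 in cocaine mice and 80.8% ± 0.200 in saline mice, a difference of -0.796 points (exact permutation test over the 70 assignments of mice, two-sided, p = 0.0857, where no result of this test goes below 0.0286). Single libraries moved this value. Without cocaine 3 it was -0.435 points (exact permutation p = 0.171), and without cocaine 4 it was -1.08 points (exact permutation p = 0.0286, the smallest possible). The SD among cocaine mice was larger than among saline mice.

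Cytosines nearer genes also had a lower mean in cocaine mice. The difference was -1.01 points up to 50 kb from genes, -0.712 points inside genes and -0.379 points within 1 kb of gene ends. The unadjusted exact permutation p was 0.0857, 0.114 and 0.143 in that order. In each class the groups overlapped through cocaine 4. The excess of the gene-distant level over the nearer intergenic level was 16.4 ± 0.188 points in cocaine mice and 16.2 ± 0.162 points in saline mice (difference 0.217, exact permutation p = 0.114, adjusted over 2 such tests 0.229). Weighted by reads this difference was -0.470 points. The excess over the level inside genes was 49.0 ± 0.240 points in cocaine mice and 49.1 ± 0.0675 points in saline mice (difference -0.0848, exact permutation p = 0.514, adjusted 0.514). That difference was 0.625 points when weighted by reads.

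No level class or distance bin passed after adjustment over the 7 tested. Cytosines over 500 kb from genes, 6919 in all, read 88.0%, 88.0%, 87.1% and 88.2% in cocaine mice, against 88.6%, 88.4%, 88.5% and 88.7% in saline mice. The groups did not overlap, and the difference of -0.733 points gave the smallest exact permutation p of 0.0286, adjusted 0.15. The bins at 50 to 100, 100 to 200 and 200 to 500 kb differed by -0.885, -0.755 and -0.697 points, with adjusted exact p of 0.15, 0.16 and 0.15. Cytosines over 80% read 91.9% ± 0.556 in cocaine mice and 92.6% ± 0.261 in saline mice (adjusted exact p = 0.15). Cytosines from 20% to 80% read 58.0% ± 1.81 in cocaine mice and 59.4% ± 1.66 in saline mice (adjusted exact p = 0.333), and those under 20% read 6.31% ± 0.787 in cocaine mice and 6.52% ± 0.912 in saline mice (adjusted exact p = 0.714). Without cocaine 4, 5 of the 7 (the 4 distance bins and the class over 80%) had an adjusted exact permutation p of 0.04. Without cocaine 3 the differences of the distance bins lay between -0.337 and -0.502 points, and none passed.

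**Figure D4:**
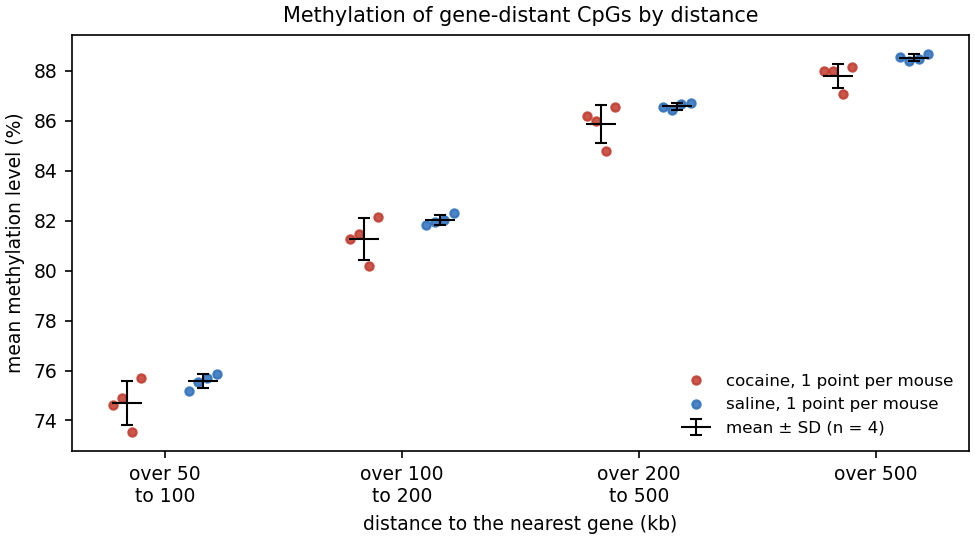
Mean methylation level (%) of gene-distant cytosines by distance from the nearest gene (kb), 1 point per mouse, with mean ± SD (n = 4). The level is higher in each farther bin in both groups, and beyond 500 kb all 4 cocaine mice lie below all 4 saline mice.

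The lower mean in cocaine mice was spread over the genome. All 19 autosomes had a lower gene-distant mean in cocaine mice, with differences from -1.14 to -0.607 points. Runs were also grouped by the gene-free stretch they lay in, of which there were 1866. Of the 59 stretches with 20 or more runs, 55 had a lower mean level in cocaine mice, with differences over all 59 from -3.34 to 0.626 points. Every cocaine mouse lay below every saline mouse on 2 of the 19 autosomes and in 5 of the 59 stretches. In 0 of the 59 every cocaine mouse lay above. These counts were not tested, and no background is given for them. Autosomes and stretches share the same 8 mice, so their agreement adds no replicates. The stretch between D3Ertd751e and 2610316D01Rik on chromosome 3 was 3477 kb long and held 46 runs, which read 88.4%, 88.9%, 87.2% and 89.3% in cocaine mice, against 88.8%, 89.7%, 89.0% and 88.6% in saline mice. The groups overlapped there.

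No gene-distant run passed the test for a difference between cocaine and saline mice. Runs were tested over the whole genome with a quasi-binomial logistic model, and a call needed a Benjamini-Hochberg adjusted p under 0.05 and a difference of at least 10 points. Of 92484 tested runs 0 were called, a background of 0%, and so 0 of the 8563 gene-distant runs tested. The smallest adjusted p of a gene-distant run was 0.647. A further 130 gene-distant runs had a pooled level under 5% and 759 over 95%, and were left out. At an unadjusted p under 0.05 there were 409 gene-distant runs (4.78%), against 5.66% of all tested runs, and limma on logit levels gave 353 at that level and 0 calls.

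The direction of these runs was near the genome-wide background. At an unadjusted p under 0.05, 312 runs (3.64%) had a lower mean in cocaine mice, where the background is 4.57%, and 97 (1.13%) a higher one, where it is 1.08%. Every cocaine mouse lay below every saline mouse in 220 runs (2.57%, background 2.59%), and above in 65 (0.759%, background 0.7%). The median difference over gene-distant runs was -0.80 points, against -1.06 over all runs. Without cocaine 3 these medians were -0.33 points for gene-distant runs and -0.56 for all runs, and without both saline 1 and cocaine 3 they were -0.37 and -0.68. A difference of 10 points or more was found in 2.70% of gene-distant runs and in 5.26% of all runs. Level was not matched in this comparison. Of the gene-distant runs 75.6% were over 80% methylated, against 36.9% of runs inside genes.

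The 8 runs with the smallest p and a lower cocaine mean lay 53.3 to 405 kb from a gene, and none of them passed the test. The first was on chromosome 1 at 122357154 to 122357229, 105 kb from the lncRNA Gm28590. It read 41.3%, 80.6%, 49.2% and 60.1% in cocaine mice, against 85.1%, 87.5%, 84.7% and 73.9% in saline mice (difference -25.0 points, quasi-binomial p = 0.000147, adjusted 0.647), from 78.2 to 143.8 reads per cytosine in each mouse. Cocaine 2 lay within the range of the saline mice. On chromosome 2, the run at 178909499 to 178909566, 58.5 kb from the lncRNA Gm35888, read 3.17%, 5.0%, 6.67% and 0% in cocaine mice, against 45.5%, 6.90%, 44.1% and 37.4% in saline mice. Saline 2 read near the cocaine mice, at 6.90%, and the groups did not overlap. This run rests on 3 CpGs and 15 to 33 reads per cytosine. On chromosome 17, the run at 48647495 to 48647680, with 9 CpGs and 63.4 kb from the lncRNA Gm30419, read 37.3%, 40.7%, 30.9% and 32.1% in cocaine mice, against 49.6%, 48.4%, 55.2% and 51.1% in saline mice. Every cocaine mouse was below every saline mouse there. The runs near Gm35888 and Gm30419 both had an adjusted p of 0.876 in the quasi-binomial test.

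The other 5 of these runs had smaller differences. The run 58.4 kb from Pkhd1, which encodes the ciliary protein fibrocystin, averaged 82.8% ± 4.92 in cocaine mice and 94.2% ± 1.36 in saline mice. The run 90.7 kb from Glycam1, a mucin-like ligand of L-selectin, averaged 74.0% ± 11.0 in cocaine mice and 85.7% ± 2.86 in saline mice, and cocaine 1, at 89.6%, was above all 4 saline mice. A run in the pseudogene Gm7935, 80.5 kb from the lncRNA Gm32405, averaged 86.4% ± 2.63 in cocaine mice and 97.2% ± 2.20 in saline mice. On chromosome 7, the run at 145015655 to 145015714, 53.3 kb from the lncRNA Gm46023, averaged 52.2% ± 8.82 in cocaine mice and 67.4% ± 4.85 in saline mice. The run 405 kb from Zfp804a, a zinc finger gene whose human counterpart is known from schizophrenia genetics, averaged 30.6% ± 3.83 in cocaine mice and 41.7% ± 2.87 in saline mice. All 5 had an adjusted p of 0.876 in the quasi-binomial test.

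**Figure D5:**
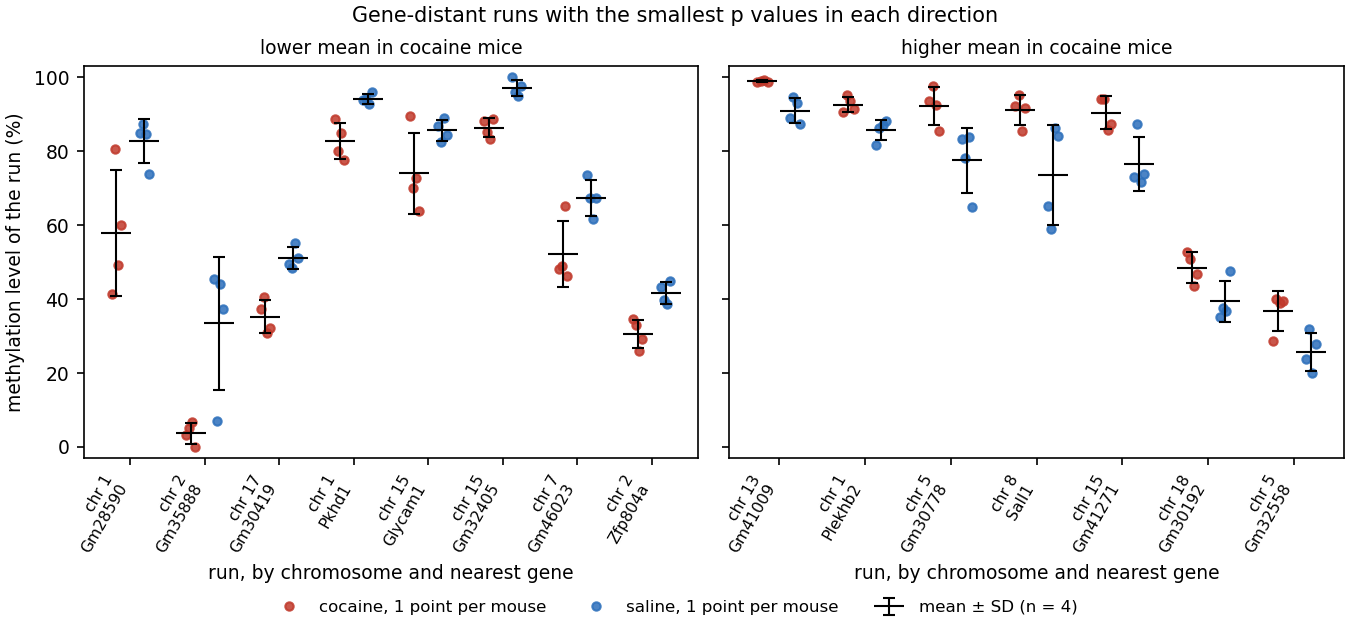
Methylation level (%) of the gene-distant runs described with the smallest p in each direction, 8 with a lower mean in cocaine mice on the left and 7 with a higher one on the right, 1 point per mouse with mean ± SD (n = 4). None passed the test, and cocaine 2 in the Gm28590 run and saline 2 in the Gm35888 run lie close to the other group.

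The runs with the smallest p and a higher cocaine mean did not pass the test either. In 3 of the 7 described every cocaine mouse lay above every saline mouse, against 0.7% of all 92484 tested runs. The 7 were chosen by p in the same data, so their separation adds no support. On chromosome 13, the run at 82335677 to 82335695, 331 kb from the lncRNA Gm41009, read 98.7%, 99.0%, 99.2% and 98.9% in cocaine mice, against 89.0%, 94.6%, 92.9% and 87.5% in saline mice. It rests on 3 CpGs. Next was a run on chromosome 1 at 35304576 to 35304720, 425 kb from Plekhb2, which averaged 92.6% ± 2.08 in cocaine mice and 85.8% ± 2.78 in saline mice, and the run in the pseudogene Gm15975 on chromosome 5 averaged 92.3% ± 5.07 in cocaine mice and 77.6% ± 8.78 in saline mice.

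The other 4 overlapped between groups. On chromosome 8, the run at 88950743 to 88950830, 76.4 kb from Sall1, a zinc finger transcription factor gene, averaged 91.1% ± 4.09 in cocaine mice and 73.6% ± 13.6 in saline mice, with saline 3 and saline 4 at 86.2% and 84.1%. The run 69.7 kb from the lncRNA Gm41271 averaged 90.4% ± 4.39 in cocaine mice and 76.5% ± 7.35 in saline mice. A run with 14 CpGs on chromosome 18 at 81178049 to 81178380, 86.3 kb from the lncRNA Gm30192, averaged 48.5% ± 4.11 in cocaine mice and 39.4% ± 5.65 in saline mice. The run 112 kb from the lncRNA Gm32558 averaged 36.7% ± 5.45 in cocaine mice and 25.8% ± 5.15 in saline mice. All 7 had an adjusted p of 0.876 in the quasi-binomial test.

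Among the 28 unmethylated runs with 20 or more CpGs, 1 had groups that did not overlap, and it was picked after its values were seen. It was left out of the test for its low level and lay in the pseudogene Gm18763 on chromosome 18 at 7693000 to 7693163, with Mpp7 as the nearest gene. It read 0%, 0.0239%, 0% and 0% in cocaine mice, against 6.46%, 3.57%, 2.505% and 3.57% in saline mice. Summed over the 37 cytosines of the run, methylated reads were 1 of 12707 in cocaine mice and 533 of 13473 in saline mice. A read is counted at each cytosine it covers, so these are not numbers of separate reads. In the fit with no filter on level the difference of -4.02 points had p = 4.39e-05 and an adjusted p of 0.770 (quasi-binomial test). Among the 889 untested gene-distant runs, every cocaine mouse lay below every saline mouse in 20 (2.25%), against 1.57% of all 33393 untested runs, and above in 4 (0.450%), against 0.650%.

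The 5 runs farthest from genes were mostly methylated. The farthest, on chromosome 3 at 43717001 to 43717152, lay 1563 kb from 2610316D01Rik and read 89.5%, 85.2%, 93.9% and 90.1% in cocaine mice, against 81.8%, 88.1%, 92.8% and 88.7% in saline mice. The second, on the same chromosome at 43769836 to 43769992 and 1510 kb from that lncRNA, was less methylated, at 64.9% ± 2.90 in cocaine mice and 67.6% ± 3.00 in saline mice. The third, 1503 kb from D3Ertd751e, averaged 93.3% ± 1.44 in cocaine mice and 96.5% ± 1.45 in saline mice, with no overlap (difference -3.20 points, quasi-binomial adjusted p = 0.876). The fourth lay 1502 kb from Adgrl3, which encodes the adhesion receptor latrophilin 3. It averaged 92.9% ± 3.12 in cocaine mice and 90.4% ± 3.36 in saline mice. The fifth averaged 87.2% ± 3.88 in cocaine mice and 89.3% ± 7.46 in saline mice. Of the 5, 4 lie in the chromosome 3 stretch described above.

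The most variable gene-distant runs varied within groups. The Gm28590 run had the largest SD over the 8 mice, 17.8 points, among runs with at least 5 CpGs and 20 reads per cytosine in every mouse. On chromosome 12, the run at 82548645 to 82548829, 59.6 kb from the lncRNA Gm30966, read 54.2%, 51.2%, 42.2% and 73.7% in cocaine mice, against 17.0%, 67.8%, 54.5% and 64.9% in saline mice. Saline 1 was the low mouse. On chromosome 7, the run at 37909959 to 37909987, 50.005 kb from Uri1, read 40.2%, 76.6%, 53.0% and 84.0% in cocaine mice and from 77.0% to 81.8% in saline mice (quasi-binomial adjusted p = 0.876). Cocaine 1 and cocaine 3 were the low mice. On chromosome 6, the run at 10690646 to 10690736 read 54.5% in cocaine 2 and 73.6% in saline 3, and from 95.1% to 98.2% in the other 6 mice. The run on chromosome 4 at 40009156 to 40009360 averaged 46.9% ± 13.7 in cocaine mice and 37.8% ± 17.6 in saline mice.

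The runs nearest the 50 kb limit differed widely in level among themselves on both sides of it. The 3 just beyond it, 50.001 kb from Gm52612, Disp3 and Gm31836, averaged 22.05%, 60.5% and 46.9% in cocaine mice, against 28.9%, 63.1% and 45.3% in saline mice. The 3 just short of it, 49.96 kb from Gda, 49.9 kb from Spata18 and 49.9 kb from Gm45999, averaged 95.3%, 91.6% and 40.2% in cocaine mice, against 94.7%, 94.9% and 36.7% in saline mice. Runs were broken at the limit, so a run beside it can be part of a longer row of CpGs. Each run was placed by its cytosine nearest a gene.

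Libraries differed in depth and in how reads were spread. Coverage summed over listed cytosines ranged from 87964952 to 116317068 in cocaine mice and from 102632052 to 141775386 in saline mice. The median coverage of gene-distant cytosines was 39 to 56 reads in cocaine mice and 52 to 71 reads in saline mice. At gene-distant cytosines of intermediate level with 30 to 40 reads, 15.8% read exactly 0% or 100% in saline 1, against 0.305% to 2.83% in the other 7 libraries. Gene-distant coverage relative to the rest was 1.04 in cocaine 4 and 0.860 to 0.967 in the others. With saline 1 and cocaine 3 both left out, a choice made after seeing the data, the mean difference was -0.511 points (exact permutation p = 0.2). Methylation within 1 kb of the ends of marker genes of cell types is given as a description only. Genes of 1 list differed widely. Among oligodendrocyte genes, Olig1 averaged 0.745% in cocaine mice and 0.817% in saline mice, and Mobp 76.7% and 75.8%. The list means therefore do not measure cell makeup. For granule neurons (5 of 8 genes measured) it was 2.09% to 3.51% in cocaine mice and 2.23% to 2.88% in saline mice. For oligodendrocytes (6 of 8) it was 22.5% to 27.9% in cocaine mice and 23.2% to 27.1% in saline mice, and for astrocytes (5 of 6) 16.6% to 19.8% in cocaine mice and 17.2% to 18.6% in saline mice. For microglia (1 of 6) it was 14.3% to 27.1% in cocaine mice and 16.4% to 22.4% in saline mice. For endothelial cells (3 of 4) it was 22.0% to 28.8% in cocaine mice and 27.7% to 32.0% in saline mice. Most of that gap came from Pecam1, with 5 cytosines, at 71.1% in cocaine mice and 84.6% in saline mice. Cldn5 averaged 2.40% in cocaine mice and 3.53% in saline mice, and Flt1 1.58% and 1.55%. The part of depth and cell makeup in the differences above was not tested.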

How the data were processed

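RRBS libraries of 8 mice, 4 per group by sample title, were analysed. Per the submitters' processing notes, reads were handled with bcl2fastq and Bismark 22.1 against mm10; no source used here gives trimming or duplicate removal. The deposited files list a methylation level per cytosine and strand as a fraction from 0 to 1, printed here as percent, and coverage as a read count of at least 10. Level times coverage was whole at 100% of cytosines (within 5e-07 times the coverage), which gave methylated reads. The labels name no molecular identifiers, so read counts are not counts of molecules and limits from them cover counting error only.

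Distances were taken to RefSeq genes of GRCm38.p6, whose primary coordinates are those of mm10; 184115 of 184115 cytosines in promoter windows matched a C on their strand. Run tests used Python 3.11.15 and R 4.3.3 with limma 3.58.1 (squeezeVar) over 92484 runs with a pooled level from 5% to 95%, and were tested on simulated data. Runs named are the 8 with the smallest p in each direction, the 6 with the most CpGs, the 6 with the most CpGs under 20%, the 5 farthest, the 5 most variable and 3 on each side of 50 kb. Of the runs with a higher cocaine mean, 1 is not reported here. Members and lists were chosen with earlier results of these data known. Alternatives varied coverage, distance, gene types, gaps, CpG number, weights, the test and the libraries used.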

Additional observations from a re-analysis of the deposited data

Results flagged for a closer look

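In 9 of 84 groups of 4 mice, 1 mouse stood far from the other 3, where chance flags about 1 group in 20 of those not chosen for their values. Many of the 84 groups are runs chosen for their p or their spread between mice, so that rate does not apply to them. Saline 1 accounted for 4 of the 9. It read 93.0% over the cytosines above 80%, where the other saline mice lay between 92.4% and 92.5%. It read 4.95% at the run with 41 CpGs near Gm36156, 3.66% at the run near Irx5 and 63.1% at the run on chromosome 3 that is second farthest from a gene, where the other saline mice read 68.7% to 69.4%. Cocaine 3 read 65.3% at the run near Gm46023, where the other cocaine mice read 46.2% to 49.1%. Cocaine 1 read 28.6% at the run near Gm32558, where the other cocaine mice read 39.0% or more. Saline 2 read 87.5% at the run near Gm41271, where the other saline mice read 71.8% to 73.8%. At the variable run on chromosome 6, near Gm35822, cocaine 2 read 54.5% against 95.3% to 98.2% in the other cocaine mice, and saline 3 read 73.6% against 95.1% to 96.9% in the other saline mice.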

How the results depend on the processing

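Of 362 alternative values, 343 stayed the same. For a difference this means that it kept its direction and its side of the threshold. A count of runs has neither, and was taken as the same where it stayed close to the main count. Of the rest, 6 differences reversed, 6 passed the threshold and 7 counts of runs moved further. For the 16 runs with the smallest p, 8 in each direction, 174 of 174 kept direction and side of the threshold. The lowest adjusted p was 0.188. The run near Gm41009 was fitted in 9 of the 11 settings. These runs were chosen by p in the same data, and a change of test alone cannot change the difference. Their agreement therefore adds no support. Weighting by reads turned the difference in far minus near level to -0.470 and in far minus inside level to 0.625 points, and a mean over runs gave 0.117 for far minus inside; the cause was not tested. Leaving out 1 mouse gave -1.08 to -0.435 points for the mean, 0.133 to 0.288 for far minus near, -0.184 to 0.0122 for far minus inside, -0.603 to 0.123 for cytosines under 20%, -2.26 to -0.699 from 20% to 80%, -0.847 to -0.411 over 80%, -1.22 to -0.502 at 50 to 100 kb, -1.05 to -0.390 at 100 to 200 kb, -0.921 to -0.337 at 200 to 500 kb and -0.856 to -0.493 beyond 500 kb. Runs at p under 0.05 then numbered 232 to 358 lower and 64 to 113 higher in cocaine mice, with 64 higher without cocaine 2 and without cocaine 4. Fewer runs were tested over 100 kb from genes (170 lower, 49 higher), with every gene type counted (200 lower) and with 5 or more CpGs (151 lower, 35 higher). Replicate numbers are shared between the groups. Deviations of same-numbered mice correlated at only -0.017 to 0.077, and 3 of 8 mice correlated best with their own number in the other group. These values show no clear pairing by number, but they cannot exclude that same-numbered mice were handled together. With the replicate block, 434 runs reached p under 0.05 (337 lower, 97 higher), 0 were called, and the mean difference had a paired exact permutation p of 0.125, the smallest that 4 pairs can give. Depth and 4 mice per group limit what can be seen.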
